A study of Mus musculus with 6 samples.

Results

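The fibroblast growth factor (FGF) receptor genes Fgfr1, Fgfr2, Fgfr3 and Fgfr4 and the FGF response genes Etv4, Etv5, Spry1, Spry2, Spry4 and Dusp6 were examined in neonatal mouse cerebellar cells sorted by the surface antigens ACSA-2 and GLAST. These 10 genes were chosen by name, with earlier results of these data known. They are represented by 17 of the 55681 probes and 10 of the 24082 gene names of the array. Cerebella of wild-type mice, of strain CD1 and aged P1 to P3 per the labels, were pooled and dissociated, and cells were isolated by magnetic cell separation. The ACSA-2 positive, GLAST positive fraction (A+/G+) was enriched with Anti-ACSA-2 beads alone. The ACSA-2 negative, GLAST positive fraction (A-/G+) was first depleted of cells carrying L1CAM, ACSA-2, CD45, PSA-NCAM or Ter119 and then selected for GLAST. Each fraction is represented by 3 biological replicates of 50000 cells, with 1 array per replicate and no treatment. ACSA-2 is the product of Atp1b2, a subunit of the sodium pump, and GLAST is the glutamate transporter encoded by Slc1a3.

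FGF receptors are tyrosine kinases of the cell surface. Secreted FGFs bind them together with heparan sulfate, and the active receptor signals mainly through adaptor proteins and the RAS/MAP kinase cascade to ERK. ERK activity raises transcription of the ETS factors Etv4 and Etv5 and of inhibitors that feed back on the pathway, among them the Sprouty proteins, which dampen RAS/MAP kinase signaling, and Dusp6, a phosphatase of ERK. In the developing cerebellum FGF signals take part in early patterning and in the formation of glia, and Fgfr3 is widely used as a marker of the astrocyte lineage.

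Array probes are DNA oligonucleotides of 60 bases, and closely related genes could in principle share signal. For 3 of the 4 receptors the array carries a probe over the end of the tyrosine kinase coding part, a conserved part of these receptors, and these are shown because the receptors differed on them. The sequences are those of the array's annotation, 5′ to 3′ in the direction of the transcript, and capitals mark the 29 bases that line up without gaps among all 3.
Fgfr1: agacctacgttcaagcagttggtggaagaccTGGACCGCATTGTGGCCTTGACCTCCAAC
Fgfr3: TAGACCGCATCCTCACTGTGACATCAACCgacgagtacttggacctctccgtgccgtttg
Fgfr4: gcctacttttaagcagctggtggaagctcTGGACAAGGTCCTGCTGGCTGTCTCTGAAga
The Fgfr1 probe lies at chr8:26684061-26684120 of mm9 on the plus strand, the Fgfr3 probe spans chr5:34077856-34078090 on the plus strand, and the Fgfr4 probe lies at chr13:55269212-55269271 on the plus strand. Within the capitals the Fgfr1 and Fgfr3 probes were identical at 19 of 29 bases (65.5%), Fgfr1 and Fgfr4 at 12 (41.4%) and Fgfr3 and Fgfr4 at 11 (37.9%). The Fgfr1 and Fgfr4 probes overlap further, and over the whole overlap they were identical at 35 of 58 bases (60.3%). Over all 127 pairs of probes that belong to different genes of the 10, the longest run of bases in common was 9. Whether the other probes lie in coding or untranslated sequence was not examined here.

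Signals are given on the log2 scale after quantile normalization, and a difference is the mean of A+/G+ minus the mean of A-/G+. Means are given with the SD over 3 arrays. The fractions were compared with limma over all probes, and a called probe had an adjusted p (Benjamini-Hochberg) of 0.05 or less. The stricter rule of the study's methods also asks for medians at least 4-fold apart. A gene is represented by its brightest probe unless stated otherwise, and the level of a probe is not compared with that of another probe. In sorted bulk samples, fewer cells of a type and less RNA per cell cannot be told apart.

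Before the results, 3 properties of the arrays need to be known. Slide 1 carried every A+/G+ array and slide 2 every A-/G+ array, and the effect of the slide cannot be told apart from that of the fraction. The A+/G+ arrays were alike in brightness, with the 75th percentile of the intensity at 332 to 334, whereas the A-/G+ arrays were dimmer and uneven, with 56.6, 113 and 251 in replicates 1, 2 and 3. Between 26476 and 26655 probes were well above background on the A+/G+ arrays and between 18340 and 24730 on the A-/G+ arrays. Of the sort antigens, Atp1b2 differed by 2.16 (SE 0.18, adjusted p = 0.00725 in limma), and its fractions did not overlap. Slc1a3 differed by -1.19 (SE 0.29, adjusted p = 0.0733), which did not pass. With 3 arrays against 3, the smallest p of a two-sided exact permutation test is 0.1.

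Of the 10 genes, Fgfr3 was higher in A+/G+, Fgfr1 and Etv5 were higher in A-/G+, and 7 were not called. Over all genes by their brightest probe, 12.6% were called, 7.48% toward A+/G+ and 5.12% toward A-/G+. Of the 10, Fgfr3 alone also passed the 4-fold limit, which 3.06% of all genes did (2.62% toward A+/G+ and 0.44% toward A-/G+). The scanner software placed 9 of the 10 genes well above background on every array, and among all genes of that kind 18.9% were called. The median difference was -0.18 over the 10 genes and -0.03 over all genes, and the median size of the difference was 0.29 and 0.33, respectively.

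**Figure D1:**
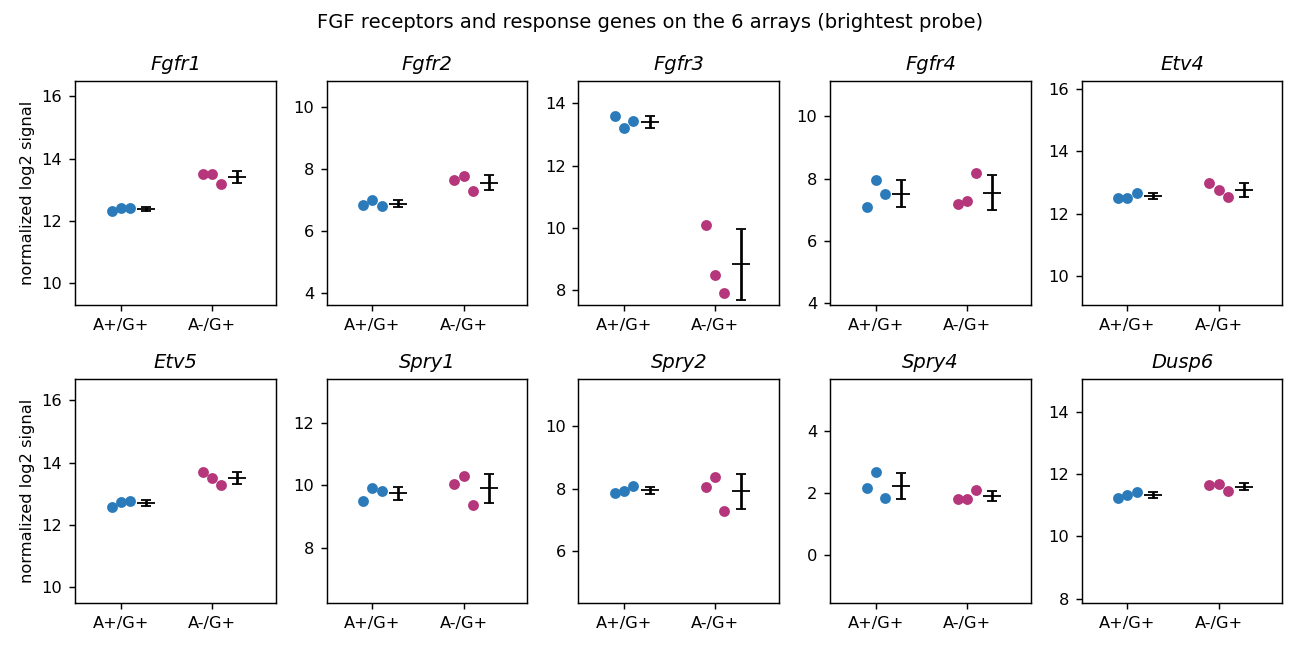
Normalized log2 signal (vertical axis) of the brightest probe of each of the 10 genes on the 3 A+/G+ arrays (blue) and the 3 A-/G+ arrays (magenta). Each dot is an array, black bars are the mean ± SD, and every panel spans the same number of log2 units. The A+/G+ arrays of Fgfr3 sit between 13.21 and 13.60 and its A-/G+ arrays between 7.90 and 10.09. In the other panels the means of the fractions lie within 1.01 log2 units of each other.

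Fgfr3 showed the largest difference among the 10 genes. Its brightest probe (A_55_P1996578, chr5:34079649-34079708 of mm9, plus strand) gave 13.60, 13.21 and 13.42 in A+/G+ replicates 1, 2 and 3 and 10.09, 8.49 and 7.90 in those of A-/G+ (all values below are in this order). The fractions did not overlap, and the A-/G+ arrays were spread widely, with replicate 1 the highest. The means were 13.41 ± 0.20 and 8.83 ± 1.13, a difference of 4.58 with a 95% confidence interval of 3.04 to 6.13 (SE 0.60, adjusted p = 0.0181 in limma), or 24.0-fold between the means and 30.5-fold between the medians. This difference is larger in size than those of all but 0.0880% of probes.

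The kinase-end probe of Fgfr3 shown above gave 10.20, 9.96 and 10.14 in A+/G+ and 6.04, 5.47 and 4.93 in A-/G+. The fractions did not overlap, and in A-/G+ this probe was well above background on 2 of the 3 arrays. The difference was 4.62 (95% confidence interval 3.86 to 5.39, SE 0.30, adjusted p = 0.00440). With this processing, 2 probes in different places of the transcript thus gave nearly the same value. With normexp background correction they lay further apart, at 4.33 for the brightest probe and 3.33 for the kinase-end probe. The remaining Fgfr3 probe is assigned to another transcript model and was dim, with 4.33, 4.80 and 4.90 in A+/G+ and 2.18, 2.56 and 2.18 in A-/G+. None of its A-/G+ arrays was well above background, and its difference of 2.37 (adjusted p = 0.00725) is given without a fold, because the lowest measurable signal, averaged over the A-/G+ arrays, lay above its A+/G+ mean. With this processing all 3 Fgfr3 probes were therefore called in the same direction. Of all probes 4.65% were called toward A+/G+, 4.64% toward A-/G+ and 9.29% in all. The size of the dim probe's difference depended on the processing. It was 1.56 and not called with a shift of each array to its 75th percentile (adjusted p = 0.0521 in limma). With normexp background correction it was 0.44 (adjusted p = 0.00977 in limma).

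Leaving out any of the 3 A+/G+ arrays or A-/G+ replicate 2 took the brightest Fgfr3 probe past the limit, with adjusted p = 0.0590 to 0.0814 and differences of 4.40 to 4.70. The kinase-end probe remained called without each of the 6 arrays, at adjusted p = 0.00544 to 0.0285.

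Fgfr1 went the other way by a smaller amount. Its brightest probe (A_55_P2057777, chr8:26685072-26685131 of mm9, plus strand) gave 12.32, 12.41 and 12.42 in A+/G+ and 13.52, 13.50 and 13.17 in A-/G+. The A-/G+ arrays were all above the A+/G+ arrays, with replicate 3 the nearest to them. The means were 12.38 ± 0.05 and 13.40 ± 0.20, a difference of -1.01 (95% confidence interval -1.31 to -0.72, SE 0.12, adjusted p = 0.0132), or 2.13-fold between the medians. The kinase-end probe gave 9.96, 10.05 and 10.16 in A+/G+ and 11.66, 11.70 and 11.16 in A-/G+. Its difference was -1.45 (SE 0.17, adjusted p = 0.0143), or 3.05-fold between the medians, again without overlap. The dimmest Fgfr1 probe gave 6.45, 6.24 and 6.47 in A+/G+ and 8.50, 7.73 and 6.66 in A-/G+. Here too the fractions did not overlap, but the A-/G+ arrays differed so much among themselves that the difference of -1.24 was not called (SE 0.49, adjusted p = 0.220). Without any of the 3 A+/G+ arrays the brightest probe was not called (adjusted p = 0.0606 to 0.0649), at differences of -1.04 to -0.99.

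Fgfr2 was not called. Its brighter probe (A_55_P2094881, chr7:137307473-137307532 of mm9, minus strand) gave 6.83, 7.01 and 6.81 in A+/G+ and 7.63, 7.76 and 7.28 in A-/G+. Every A-/G+ array exceeded every A+/G+ array, and the difference of -0.67 had a 95% confidence interval of -1.06 to -0.29 (SE 0.15, adjusted p = 0.0608). The other Fgfr2 probe, printed in 10 spots and largely overlapping the first, gave 5.55, 5.54 and 5.39 in A+/G+ and 5.64, 6.29 and 6.09 in A-/G+. The fractions did not overlap there either, by a margin smaller than 0.1 log2 units between the nearest arrays, and the difference was -0.51 (SE 0.18, adjusted p = 0.184). Fgfr2 passed the limit in some other settings, at adjusted p = 0.0302 with normexp background correction, 0.0330 after a filter on dim probes, 0.0415 for the mean of its probes and 0.0171 without A-/G+ replicate 3.

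Fgfr4 did not separate the fractions. Its brighter probe (A_55_P2120055, chr13:55270033-55270092 of mm9, plus strand) gave 7.09, 7.96 and 7.50 in A+/G+ and 7.17, 7.29 and 8.19 in A-/G+. The arrays overlapped throughout, with a difference of -0.03 and a 95% confidence interval of -0.99 to 0.92 (adjusted p = 0.969). The kinase-end probe gave 4.09, 5.41 and 4.89 in A+/G+ and 4.20, 4.16 and 5.11 in A-/G+, exceeded background well on 3 and 1 arrays, and differed by 0.31 (adjusted p = 0.691). The interval of the brighter probe still allows a difference of nearly 2-fold in either direction.

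**Figure D2:**
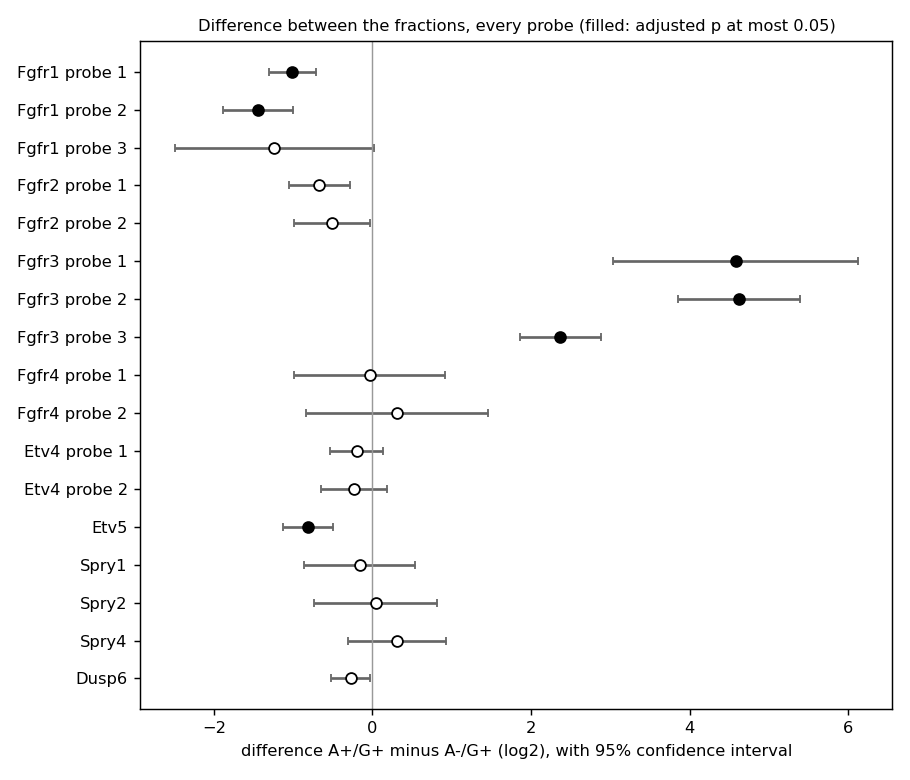
Difference between the fractions (A+/G+ minus A-/G+, log2, horizontal axis) for each of the 17 probes, numbered within a gene from the brightest down. Bars are 95% confidence intervals from limma, and filled dots passed an adjusted p of 0.05. The 3 Fgfr3 probes lie between 2.37 and 4.62, the 3 Fgfr1 probes between -1.45 and -1.01, and the Etv5 probe at -0.81.

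The balance between receptors can be read without normalization between arrays, since the difference of 2 log2 signals within an array does not depend on that array's scale. It still depends on the background correction of the signals. On this measure Fgfr3 relative to Fgfr1 was higher in A+/G+ by 5.66, with SDs of 0.21 and 1.02 in A+/G+ and A-/G+. Fgfr1 relative to Fgfr2 differed by -0.47 (SDs 0.09 and 0.10). In both pairs the arrays of the fractions did not overlap (exact permutation p = 0.1, two-sided, the smallest possible). These pairs were chosen after the values had been seen.

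Among the response genes, Etv5 was called. It gave 12.58, 12.74 and 12.76 in A+/G+ and 13.69, 13.52 and 13.30 in A-/G+ (A_55_P2037454, chr16:22381387-22381446 of mm9, minus strand). The A-/G+ arrays exceeded all of A+/G+, with means of 12.69 ± 0.10 and 13.50 ± 0.20. The difference was -0.81 (95% confidence interval -1.13 to -0.50, SE 0.12, adjusted p = 0.0246), or 1.72-fold between the medians. Without any A+/G+ array or without A-/G+ replicate 2 it was not called (adjusted p = 0.0729 to 0.0946).

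Its close relative Etv4 was not called by either probe. The brighter one gave 12.51, 12.49 and 12.67 in A+/G+ and 12.97, 12.75 and 12.54 in A-/G+, so that the fractions overlapped. Its difference was -0.20 (95% confidence interval -0.54 to 0.14, adjusted p = 0.463), and that of the other probe was -0.23 (adjusted p = 0.494). Dusp6 gave 11.23, 11.31 and 11.43 in A+/G+ and 11.65, 11.69 and 11.46 in A-/G+. These fractions did not overlap, as was so for 42.4% of all genes (19.1% with A+/G+ and 23.3% with A-/G+ above), and the difference of -0.27 had a 95% confidence interval of -0.52 to -0.03 (adjusted p = 0.169).

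The Sprouty genes did not separate the fractions. Spry1 gave 9.52, 9.91 and 9.82 in A+/G+ and 10.05, 10.30 and 9.38 in A-/G+, and differed by -0.16 (95% confidence interval -0.86 to 0.54, adjusted p = 0.732). Spry2 gave 7.86, 7.91 and 8.08 in A+/G+ and 8.05, 8.39 and 7.29 in A-/G+, and differed by 0.04 (95% confidence interval -0.74 to 0.82, adjusted p = 0.949). In both genes A-/G+ replicate 3 was the lowest of all 6 arrays and A-/G+ replicate 2 the highest. Spry4 gave 2.15, 2.67 and 1.84 in A+/G+ and 1.82, 1.82 and 2.10 in A-/G+. No array placed it well above background, so no fold is given for it. Within arrays, and again chosen after the values had been seen, Etv5 relative to Etv4 and relative to Dusp6 each differed by -0.67, without overlap (exact permutation p = 0.1, two-sided).

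The scale of the smaller differences depends on the normalization. With a shift of each array to its 75th percentile, without quantile normalization, the median difference over all probes moved from -0.04 to -1.02, and over the probes well above background on all 6 arrays from -0.12 to -0.16. Under that shift Fgfr3 differed by 4.49, Fgfr1 by -1.17, Fgfr2 by -0.70 and Etv5 by -0.98 (adjusted p = 0.0501). Relative to the median of the probes well above background these are 4.66, -1.003, -0.53 and -0.81, and relative to the median of all probes they are 5.51, -0.15, 0.32 and 0.04. The same constant is taken from every gene, and against the median of all probes Etv4 and Dusp6 also came to 0.71 each.

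**Figure D3:**
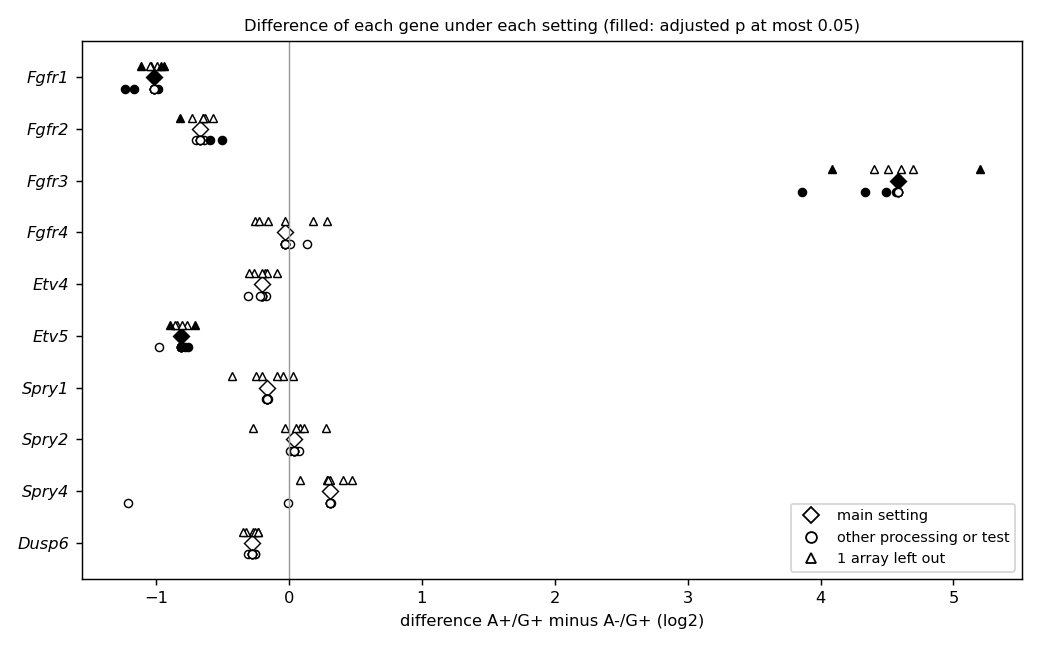
Difference of each of the 10 genes (A+/G+ minus A-/G+, log2, horizontal axis) in the main setting (diamonds), with other processing or tests (circles) and with 1 array left out (triangles). Filled symbols passed an adjusted p of 0.05. Fgfr3 lies between 3.86 and 5.20 in every setting and Fgfr1 between -1.23 and -0.94, whereas Fgfr4, Spry1, Spry2 and Spry4 change sign.

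Markers of several cell types differed between the fractions. Over all genes by their brightest probe 12.6% were called, 7.48% toward A+/G+ and 5.12% toward A-/G+. The endothelial list below, with 1 call among 8 markers, is near the share over all genes. Of 6 astroglial genes including the sort antigens, 2 were called toward A+/G+ and 1 toward A-/G+ (summed linear signal 136475 to 150170 in A+/G+ and 127028 to 199628 in A-/G+). The 7 Bergmann and radial glia markers were all called higher in A-/G+ (median difference -3.08, summed signal 4265 to 5185 and 17875 to 27055). Of the 6 parenchymal astrocyte markers, Agt, Slc6a11, Gfap and Aldoc were called higher in A+/G+ and none lower (summed signal 72647 to 81670 and 22099 to 38446). Called higher in A+/G+ were also 3 of 7 oligodendrocyte precursor markers (14179 to 17550 and 3221 to 4985), 4 of 5 Purkinje cell markers (3511 to 10714 and 390 to 554), 4 of 5 ependymal markers (8179 to 14128 and 390 to 1421), 3 of 8 meningeal fibroblast markers (77179 to 94960 and 12906 to 38254), 2 of 5 pericyte markers (2334 to 2563 and 363 to 932) and 1 of 8 endothelial markers (8364 to 12728 and 1812 to 8573). Among the oligodendrocyte precursor markers, 6 had a higher mean in A+/G+, and Lhfpl3 was higher on every A-/G+ array without being called. The difference of Lhfpl3 was -1.83 (adjusted p = 0.113 in limma). Of the 5 granule cell lineage markers, 4 had a higher mean in A+/G+ and were not called, and Pax6 was called higher in A-/G+ (median difference 0.46, 2473 to 3263 and 2852 to 4796). No call was made among 7 microglial markers (155 to 819 and 487 to 620) and 4 red blood cell markers (8800 to 16092 and 2542 to 7790), of which 1 and 3 had an unadjusted p under 0.05 in limma and 0 and 0 were called by the methods' t-test. The defining markers Ptprc of microglia and Ppp1r17 of Purkinje cells were well above background on none of the 6 arrays. The part of these cells in the differences of Fgfr3, Fgfr1 and Etv5 was not tested.

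The genes whose profile over the 6 arrays was most like that of each receptor were sought among 11333 genes, each well above background on every array, as the smallest root mean square distance between log2 profiles centred on their means. For Fgfr3 these were Slc13a3, a dicarboxylate transporter (0.30), Trim9 (0.43) and Cybrd1 (0.49). Slc13a3 gave 11.74, 11.60 and 11.48 in A+/G+ and 7.84, 7.22 and 6.05 in A-/G+, with A-/G+ replicate 1 the highest and replicate 3 the lowest of that fraction, as in Fgfr3. Distances were smaller for the receptors with small differences. For Fgfr1 they were Gsto1 (0.05), Adamts10 (0.05) and Spag5 (0.05). For Fgfr2 they were the transcription factor gene Pax3 (0.03), Peg12 (0.05) and Bach2 (0.06), and for Fgfr4 Gm4832 (0.14), Loxl1 (0.15) and Gm7931 (0.16). With 6 arrays in 2 fractions these distances mostly compare the size of the step between the fractions.

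The other genes of the pathway were counted in 6 lists of 63 genes. Of these, 9 were called toward A+/G+, 3 toward A-/G+ and 51 were not called, a share of 19.0% against 12.6% of all genes, with a median difference of 0.15. Of the called genes, only Fgf15, Fgfrl1, Dusp4, Dusp7 and Etv1 were well above background on all 6 arrays. Among all genes of that kind 18.9% were called, so the higher share is not read as a result about the pathway.

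Secreted FGFs showed the widest range. Of 18 ligand genes, 4 were called higher in A+/G+, 1 was called higher in A-/G+, 13 were not called, and 5 (Fgf4, Fgf16, Fgf17, Fgf20 and Fgf21) were not well above background on any array. Over all genes 7.48% were called toward A+/G+ and 5.12% toward A-/G+ (2.62% and 0.44% with the 4-fold limit). With each array left out, 0 to 5 ligands were called toward A+/G+ and 0 to 1 toward A-/G+. Fgf15, which is known from neural progenitors of the embryo, gave 5.50, 5.48 and 5.94 in A+/G+ and 8.89, 9.19 and 7.71 in A-/G+. It was higher on every A-/G+ array, by 10.4-fold between the medians, with a difference of -2.96 (95% confidence interval -4.07 to -1.85, SE 0.43, adjusted p = 0.0226). Fgf3 and Fgf5 also passed both limits, in the other direction. Fgf3 gave 6.02, 4.95 and 5.05 in A+/G+ and 3.35, 2.75 and 2.44 in A-/G+ (adjusted p = 0.0272). Fgf5 gave 5.87, 5.40 and 5.29 in A+/G+ and 2.36, 3.10 and 3.55 in A-/G+ (adjusted p = 0.0209). In A-/G+ neither was well above background on an array, and against the lowest measurable signal there Fgf3 was at least 1.39-fold and Fgf5 at least 1.57-fold higher in A+/G+. Named after their values were seen, Fgf18 (difference 0.93, adjusted p = 0.0195) and Fgf6 (adjusted p = 0.0428) were the others called higher in A+/G+. Fgf18 was well above background on 2 of the 3 A-/G+ arrays. For Fgf6 no A-/G+ array was, so its level there is only bounded. The smallest fold that this bound allows for Fgf6 was 1.05.

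The ligands well above background on all 6 arrays, apart from Fgf15, were not called. Fgf1 gave 10.66, 10.41 and 10.51 in A+/G+ and 9.57, 9.44 and 8.08 in A-/G+, without overlap (difference 1.50, adjusted p = 0.113). Fgf9, known for its part in Bergmann glia formation, gave 8.10, 7.52 and 6.94 against 5.92, 5.85 and 7.18, with overlap (difference 1.20, adjusted p = 0.239). Fgf8, the signal of the midbrain-hindbrain boundary, differed by -0.48 (adjusted p = 0.531) and Fgf23 by -0.43 (adjusted p = 0.636), both with overlap.

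**Figure D4:**
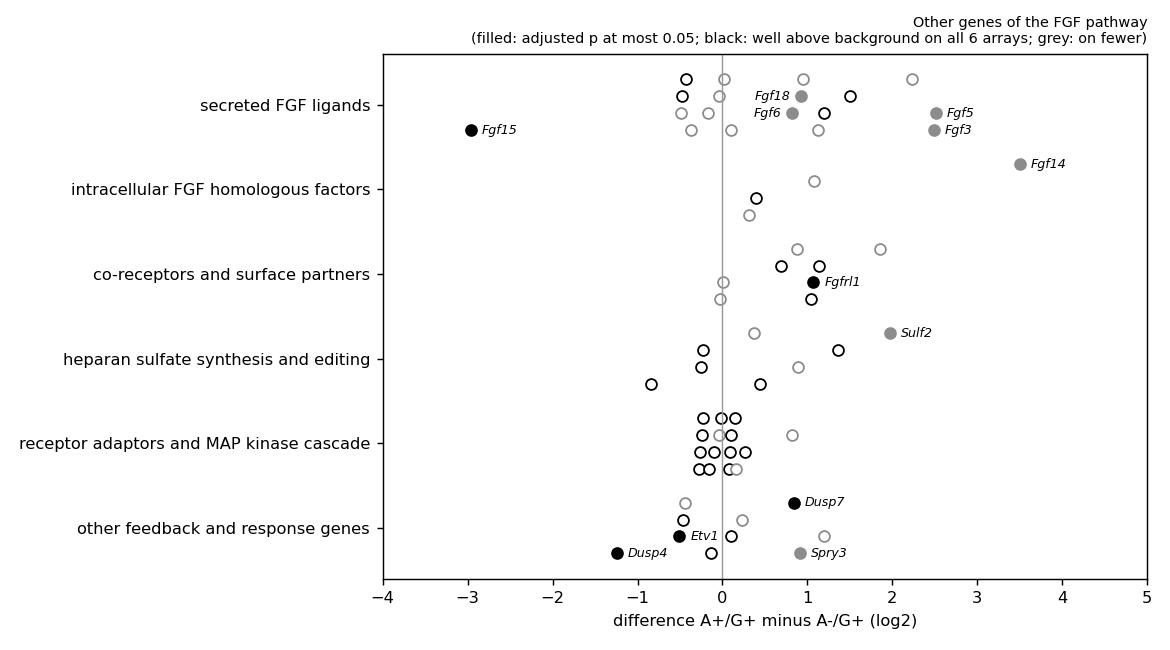
Difference between the fractions (A+/G+ minus A-/G+, log2, horizontal axis) of 63 other FGF pathway genes in 6 lists, 1 dot per gene by its brightest probe. Filled dots passed an adjusted p of 0.05 and are named, black dots exceeded background well on all 6 arrays, grey dots on fewer. Fgf15 lies at -2.96 and Fgf14 at 3.50, and the 15 adaptor and MAP kinase genes hold no filled dot.

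Next came the cascade between receptor and response genes. Of 15 adaptor and MAP kinase genes, from Frs2 and Grb2 to Mapk3, all 15 were not called, beside 12.6% called over all genes, with differences between -0.27 and 0.82 and a median of -0.02. In limma 2 of them had an unadjusted p under 0.05, and the methods' t-test called 0. With each array left out, 0 to 2 were called toward A+/G+ and 0 to 1 toward A-/G+. Every array placed 12 of them well above background. Of 10 other feedback and response genes, 2 were called in each direction, beside 7.48% of all genes toward A+/G+ and 5.12% toward A-/G+. With each array left out, 0 to 1 and 1 to 2 were called. Named after their values were seen, the phosphatase gene Dusp4 (difference -1.24, adjusted p = 0.00820) and the ETS factor gene Etv1 (-0.51, adjusted p = 0.0347) were higher in A-/G+, and Dusp7 (0.84, adjusted p = 0.0350) and Spry3 (adjusted p = 0.0367) were higher in A+/G+, the last without being well above background on any array.

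The pathway counts changed with each array left out, as did the counts over all probes. Called toward A+/G+ were 9 genes with all arrays but 3, 1 and 3 without A+/G+ replicates 1, 2 and 3, and 6, 3 and 11 without A-/G+ replicates 1, 2 and 3. Called toward A-/G+ were 3 genes with all arrays, 6 without A-/G+ replicate 3 and 1 without any other array.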

How the data were processed

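Gene expression was measured in 3 A+/G+ and 3 A-/G+ samples on 1-colour Agilent Whole Mouse Genome 8x60K arrays. RNA was amplified and labeled with Cy3, from total RNA per the study's methods and with polyA RNA as the molecule per the labels. The authors deposited the scanner output, in which Feature Extraction 10.7.3.1 gives each spot's intensity after background correction, and a table of quantile normalized log2 values. The study's methods give the age as P0 and P1 and the wild-type mice as C57BL/6, the labels P1 to P3 and CD1.

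Intensities were taken to the log2 scale without control spots and spots marked as outliers, quantile normalized as in the study's methods, and averaged per probe. The fractions were compared with limma 3.58.1 in R 4.3.3 over all 55681 probes with Benjamini-Hochberg adjustment, which takes the place of the methods' t-test. The call limits were an adjusted p of 0.05 and, as the stricter rule, medians 4-fold apart. No filter on dim probes was applied. Where no array of a fraction placed a probe well above background, its level there is only bounded. The fold is then "at least", the bright fraction's mean over a floor averaged across the dim arrays. That floor is the dimmest well-above-background signal of an array, or the probe's own signal if that is larger. Names and mm9 positions are those of the array annotation.

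The 10 genes, the 6 pathway lists and the 13 marker lists were chosen with earlier results of these data known. The result of 1 marker list is not reported here. Named were all 10 genes, pathway genes passing both limits, ligands well above background on all arrays, and the 3 genes most like each receptor. On simulated data the fit was tested first. With 3 arrays a fraction, their number limits the precision. Slide could not enter the fit as a block, since it coincides with the fraction. Tried were the authors' table, outlier spots kept, normexp (offset 50), a 75th percentile shift, a dim-probe filter, the mean of a gene's probes, limma with trend and robust variance, the methods' t-test, the replicate number as a block, a 2-fold limit, and each array left out.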

Additional observations from a re-analysis of the deposited data

How the results depend on the processing

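Fgfr3 was higher in A+/G+ and Fgfr1, Fgfr2, Etv4, Etv5 and Dusp6 were lower in every setting tried. Relative to the median of all probes under the 75th percentile shift, however, Fgfr1 came to -0.15 and Etv5 to 0.04. Fgfr2, Etv4 and Dusp6 came to 0.32, 0.71 and 0.71 on that scale. The cause of the changes below was not tested. The 75th percentile shift called 1227 probes toward A+/G+ and 2658 toward A-/G+ (2589 and 2583 with quantile normalization), and 604 and 938 with the 4-fold limit (851 and 222). Of the 10 genes it called 1 higher in A-/G+, of the pathway genes 4 higher in A+/G+ and 1 with the 4-fold limit (9 and 3 before). Etv5 was -0.98 and not called, Spry4 was -1.21 and the kinase-end Fgfr4 probe -0.019, both reversed. Normexp called 235 and 48 probes and 0 pathway genes higher in A+/G+ with the 4-fold limit, 31 pathway genes having an unadjusted p under 0.05 in either direction. Fgfr2 became called at -0.50, and Spry4 was -0.0074. The authors' table gave Fgfr4 0.0060. The filter on dim probes called Fgfr2 at -0.67, and the mean of probes called it at -0.59 and gave Fgfr4 0.14.

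The methods' t-test called 1351 and 1197 probes (487 and 121 with the 4-fold limit), 0 and 1 of the 10 genes, and 3 and 1 pathway genes (0 and 0 with the limit). Fgfr3 at 4.58 (adjusted p = 0.0502) and Etv5 at -0.81 (adjusted p = 0.0560) were not called, while the other 2 Fgfr3 probes were (4.62, adjusted p = 0.0192, and 2.37, adjusted p = 0.0268), and 5 of the 10 and 23 pathway genes had an unadjusted p under 0.05. A 2-fold limit called 1797 and 1340 probes, 1 of the 10 genes higher in A-/G+, and 5 and 2 pathway genes.

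The replicate numbers are shared by the fractions. Same-numbered arrays correlated at 0.09, 0.06 and 0.01 in their deviations from the fraction means, and differently numbered arrays at -0.07 to 0.04. These values cannot settle whether same-numbered samples were paired. With the replicate block, limma called 0 probes, 0 of the 10 genes and 0 pathway genes in either direction (11671, 4 and 24 at an unadjusted p under 0.05). Fgfr1 at -1.01, Fgfr3 at 4.58 and Etv5 at -0.81 had adjusted p = 0.0872, 0.0788 and 0.127.

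With each array left out, probes called ranged from 825 to 4469 toward A+/G+ and from 409 to 4622 toward A-/G+, and with the 4-fold limit from 328 to 1448 and from 75 to 481, the highest counts being those without A-/G+ replicate 3. Of the 10 genes 0 to 1 and 0 to 3 were called, and of the pathway genes 1 to 11 and 1 to 6 (0 to 4 and 0 to 1 with the limit). Differences ranged from -1.11 to -0.94 for Fgfr1, -0.82 to -0.57 for Fgfr2, 4.09 to 5.20 for Fgfr3, -0.25 to 0.29 for Fgfr4, -0.90 to -0.70 for Etv5, -0.42 to 0.033 for Spry1 and -0.27 to 0.28 for Spry2. Dim A-/G+ arrays limit what can be measured for low genes.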

Other observations

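Most genes of the lists around the receptors did not pass the test. Over all genes by their brightest probe 12.6% were called (7.48% toward A+/G+). A list with 1 call among 8 genes is near the first of these shares. Of 8 co-receptors and surface partners, 7 had a higher mean in A+/G+ and 1 was called, Fgfrl1, which encodes an FGF receptor without the kinase part. It gave 12.30, 12.29 and 12.35 in A+/G+ and 11.20, 11.39 and 11.14 in A-/G+, with a difference of 1.07 (SE 0.08, adjusted p = 0.00608 in limma). The median difference of this list was 0.96, whereas it was -0.03 over all genes. Of 8 genes of heparan sulfate synthesis and editing, 5 had a higher mean in A+/G+ and 3 in A-/G+, and Sulf2, a sulfatase that trims heparan sulfate outside the cell, was called, at 9.16, 9.51 and 9.93 in A+/G+ and 7.57, 7.41 and 7.71 in A-/G+ (difference 1.97, SE 0.22, adjusted p = 0.0127). It was well above background on 2 of the 3 A-/G+ arrays. Both were named after their values had been seen.

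Of the 4 intracellular FGF homologous factors, which do not act as secreted ligands and bind sodium channels, Fgf14 was called. It gave 5.93, 6.05 and 6.30 in A+/G+ and 1.96, 1.95 and 3.88 in A-/G+ (adjusted p = 0.0314), where no array placed it well above background. Against the lowest measurable signal there the A+/G+ mean was at least 2.34-fold higher. In the same arrays 4 of 5 Purkinje cell markers were called higher in A+/G+, and their part in the value of Fgf14 was not tested.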
